A study of Mus musculus with 22 samples.

Results

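The region described here is the stretch of mouse chromosome 9 from 43 to 63 Mb, which lies on both sides of Atm. Its members are the 2141 array probes whose midpoint falls in that stretch. They were chosen by position alone, out of 220065 probes placed on autosomes and 11940 on chromosome 9. At the edges, the first member and the probe just before it (both Arhgef12) had mean log2 ratios of 0.03 and 0.06, and the last member (Pias1) and the probe just after it 0.09 and 0.02. Genomic DNA of thymocytes from 22 Atm-deficient mice, labelled with Cy5, competed on 22 Agilent mouse CGH arrays with thymocyte DNA of wildtype mice, labelled with Cy3. Of the Atm-deficient mice, 8 had a T cell lymphoma and 14 had no macroscopic findings. All 22 mice were labelled Atm-deficient and none was treated, so the wildtype channel was the only DNA without the deficiency. Which part of Atm was changed, the strains, the ages, any pooling of the wildtype DNA and the share of tumour cells in a lymphoma sample are not stated in the labels. The tissue could not be checked against expression markers, because genomic DNA was measured.

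The product of Atm is a kinase that reports broken DNA to the cell cycle and repair machinery, and thymocytes depend on it while they cut and join their antigen receptor genes. A gene is commonly targeted in embryonic stem cells of one mouse strain and then bred into another, and a stretch of donor sequence on both sides of the target can persist through that breeding. On an oligonucleotide array, a probe that differs by bases from the sample's sequence binds it less well, and a segment present in one strain in fewer copies gives a run of shifted probes. Strain sequence linked to a targeted allele would therefore be looked for as an excess of deviating probes around the target. In the comparisons below, a probe counted as deviating when its log2 ratio of Atm-deficient over wildtype DNA lay beyond 0.5 in either direction, after the autosomal median of each array had been set to 0.

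The probes that carry the results are printed here in lower case, with the bases that the array files give. None of those printed holds an AluI site (agct) or an RsaI site (gtac), the cut sites of the enzymes used to fragment the DNA. The first is the Atm probe with the highest mean, and the other 4 belong to a run of 13 probes that were low together in several arrays.
Atm probe at chr9:53461029-53461088: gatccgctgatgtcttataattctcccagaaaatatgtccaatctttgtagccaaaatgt
First probe of the run, chr9:46840354-46840413: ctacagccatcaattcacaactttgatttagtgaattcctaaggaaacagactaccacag
Probe named AK038437, chr9:46880737-46880796: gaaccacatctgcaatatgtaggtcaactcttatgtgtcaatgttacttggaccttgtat
Inner probe of the run, chr9:46973947-46974006: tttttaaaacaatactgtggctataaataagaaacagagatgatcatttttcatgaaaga
Inner probe of the run, chr9:47081467-47081526: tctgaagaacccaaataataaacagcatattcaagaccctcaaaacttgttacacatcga
The sources used here do not name the build of these coordinates, and no exon or intron was assigned. Over all 2141 members, 1 holds an AluI site and 0 hold an RsaI site.

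The arrays differed in quality, and this bears on every share below. The noise of an array, taken from differences between neighbouring probes, ran from 0.15 to 0.37 in the lymphoma arrays and from 0.13 to 0.55 in the arrays without lymphoma. Noise was highest for no-lymphoma mice 9, 3 and 4. Their log2 ratios correlated negatively with those of several other arrays over 219650 autosomal probes, with a lowest r of -0.48 between lymphoma mouse 3 and the array labelled no-lymphoma mouse 4. Among the noisy arrays r was positive, at 0.86 between mice 3 and 4 and 0.87 between mice 4 and 9. The array labelled no-lymphoma mouse 1, scanned on the same day as mice 3 and 4, had r of 0.16 and 0.18 with them. The labels give 1 dye orientation for all arrays, and the direction they give was kept. Each array is 1 mouse, and their number limits the precision.

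The Atm gene itself was covered by 12 probes over 79.0 kb, and 1 of them stood apart. Its log2 ratio ran from 0.95 through a median of 1.20 to 1.32 in the lymphoma arrays. In the arrays without lymphoma it ran from -1.08 through a median of 0.98 to 1.69. All 8 lymphoma arrays were high, while the arrays without lymphoma ranged both above and below them. Above 0.5 lay 17 arrays, no-lymphoma mice 5 and 6 were at 0.44 and 0.08, and the arrays labelled no-lymphoma mouse 1, mouse 3 and mouse 4 were at -1.08, -0.72 and -0.63. Of the 9 other arrays without lymphoma, that of mouse 14 was at 0.67 and that of mouse 9 at 1.69, with the rest between 0.97 and 1.08. The 3 negative arrays made up scan batch 2, a set of arrays scanned on the same day, which held no other array. The mean over 22 arrays was 0.78 ± 0.72 (SD), away from 0 with an adjusted p of 0.000416 in the limma fit over all autosomal probes. This probe was known from earlier results when the region was set, so that p describes it. The mean was 1.03 ± 0.35 over the 19 arrays outside scan batch 2. Means of 1.17 ± 0.14 with lymphoma (SD, n = 8) and 0.55 ± 0.83 without (SD, n = 14) gave a difference of 0.62 (SE 0.28), which did not pass the limma fit (adjusted p 0.258). Outside scan batch 2 the no-lymphoma mean was 0.92 ± 0.41 (SD, n = 11).

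The 2 channels of the Atm probe showed where the signal lay. Each is given as log2 signal relative to the median of its channel on the array. In the lymphoma arrays the Atm-deficient DNA gave 1.69 to 2.28, against 0.41 to 0.97 for the wildtype DNA. In scan batch 2 the Atm-deficient channel gave 0.58, 0.58 and 0.66 for mice 1, 3 and 4 as labelled, against 1.66, 1.26 and 1.27 for the wildtype channel. The brighter channel in scan batch 2 was thus the one labelled wildtype. In no-lymphoma mouse 6 the channels were close, at 1.22 for Atm-deficient and 1.14 for wildtype DNA. Whether the labels of these arrays match their contents was not tested. Since the labels do not say which part of Atm was altered, the probe is no check of the genotype.

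The other 11 Atm probes, which include the 5 probes on either side of the one above, had means over 22 arrays from -0.09 to 0.25. None passed the limma fit with a mean beyond 0.5, and none differed between the groups. One probe, at chr9:53424115-53424174, was away from 0 at a smaller size, with a mean of 0.25 ± 0.16 (SD, n = 22) and an adjusted p of 5.24e-05. Averaged per array, the other 11 probes gave 0.03 to 0.25 in the lymphoma arrays, against -0.19 to 0.12 in the arrays without lymphoma. The ranges overlapped, and both lay far under the level of the high Atm probe in the lymphoma arrays. The nearest probes, 8.75 kb before and 7.92 kb after it, had means of 0.04 and 0.03. The high ratio was therefore measured at 1 probe and not at those on its sides.

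No excess of deviating probes passed the test in the flanks. The share of members beyond 0.5 was 8.99% ± 11.3 (SD, n = 22), against 9.19% ± 11.7 for the other 9799 probes of the chromosome. The difference taken within each array averaged -0.20 percentage points (SD 1.96), with the flank higher in 12 of 22 arrays, and a two-sided permutation test by sign changes gave p = 0.721 (0.945 adjusted over the 3 shares tested). The share below -0.5, the direction in which Atm-deficient DNA binds less, was 4.89% in the flank and 4.83% in the rest, a mean difference of 0.06 points (SD 2.72, adjusted p 0.945 by the same permutation test). For the share above 0.5 the values were 4.11% and 4.36%, a difference of -0.25 points (SD 2.92, adjusted p 0.945, permutation). All 3 mean differences were smaller than the SD over single arrays, which does not give the uncertainty of a mean. Without no-lymphoma mouse 14, which carried a large loss in the flank, the differences for the shares below -0.5 and above 0.5 turned to -0.44 and 0.10 points (adjusted p 0.574 and 0.939, permutation). Against all other autosomes, which averaged 11.6% ± 10.7 (SD, n = 22), the flank share was lower by a mean difference of -2.57 points (adjusted p 0.0151, permutation).

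Array by array, the share in the flank followed that in the rest of the chromosome. Its lowest, median and highest values were 1.73%, 3.83% and 22% with lymphoma, against 0.56%, 4.39% and 35.7% without. Lymphoma mouse 3 was the high one of its group, at 22% in the flank and 24.2% in the rest, with a noise of 0.37. The noisiest arrays, of mice labelled no-lymphoma 3, 4 and 9, had 35.7%, 29.6% and 34.4% in the flank and 36.8%, 31.3% and 33.3% in the rest. The largest excess of the flank was 2.73 points in no-lymphoma mouse 14, and the lowest difference -7.37 points in no-lymphoma mouse 7, whose rest of the chromosome held a gained segment.

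The shares in the flank are set out here by the level of the Atm probe. The 3 arrays with a negative probe had 3.97%, 35.7% and 29.6% of members beyond 0.5, each below its rest of the chromosome (4.69%, 36.8% and 31.3%). No-lymphoma mice 5 and 6, with the probe at 0.44 and 0.08, had 3.50% and 0.75% in the flank, against 3.06% and 0.84% in the rest. The array with the highest probe value, labelled no-lymphoma mouse 9, had 34.4% against 33.3%, and the quiet array of no-lymphoma mouse 10, with the probe at 1.08, had 0.56% against 0.53%. Among all arrays with the probe above 0.5, flank minus rest ran from -7.37 points in no-lymphoma mouse 7 to 2.73 points in no-lymphoma mouse 14. These values are given side by side without a test, since grouping by the probe would be grouping by an outcome.

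The 20 windows of 1 Mb in the flank held 57 to 169 probes each, and their mean shares over 22 arrays ran from 6.90% to 11.2% with a median of 9.30%, against a median of 8.87% for the other windows of the chromosome, which ran from 5.45% to 16.3%. The 5 highest were those from 57 to 58 Mb (11.2% ± 12.7, SD, n = 22), 45 to 46 Mb (10.8% ± 13.5), 47 to 48 Mb (10.8% ± 12.4), 62 to 63 Mb (10.3% ± 13.3) and 46 to 47 Mb (9.98% ± 10.3). The 3 lowest began at 51 Mb (6.90% ± 10.1), 49 Mb (7.22% ± 10.5) and 56 Mb (7.49% ± 9.43). The 5 windows from 43 to 48 Mb lay above the flank median and the 4 from 48 to 52 Mb below it. For the inner flank from 48 to 58 Mb as a whole, the share beyond 0.5 minus that of the rest of chromosome 9 was -0.82 points (p = 0.0207, 0.0620 adjusted over the 3 shares, permutation). Of stretches as long as the flank, 50.6% of 2011 on the autosomes had a lower mean share. The window that holds Atm, from 53 to 54 Mb, was among the lower ones with 7.54% ± 11.3 (SD, n = 22).

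Set against the share over all autosomes of the same array, none of the 20 windows was higher and 10 were lower in the limma fit with an adjusted p under 0.05. None was higher at an unadjusted p under 0.05 either. Over all 2374 windows of the autosomes, 6.87% were higher and 50.8% lower, and 10 of 20 is close to that background. The Atm window differed from the autosomal share by -3.90 points (SE 0.91, adjusted p 0.00116 in limma). Because the autosomal share includes the copy number changes of other chromosomes, a second measure was added after seeing the data. In it each probe was set against the running median of 7 probes, itself among them. Single deviating probes and short runs of them then count, and longer runs do not. By that measure 6 flank windows were higher and 3 lower, against 12.1% and 25.3% of all windows. The 6 were those beginning at 44, 45, 57, 58, 61 and 62 Mb, with excesses of 1.41 to 2.55 points, and the Atm window was not among them (0.11 points, adjusted p 0.852 in limma). Over the whole flank this measure was 0.31 points above the rest of chromosome 9 (adjusted p 0.314, permutation).

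Probes stood out repeatedly from their running median at a share near the background. Among the 18 arrays with a noise under 0.3, 71 members (3.32%) lay over 1 log2 unit from their running median in at least 2 arrays, against 2.48% of the rest of chromosome 9 and 2.85% of other autosomes. In at least 5 arrays this was so of 1 member (0.0467%), against 0.0714% and 0.129%. Over all 22 arrays, only the Atm probe had a mean beyond 0.5 that passed the limma fit, 1 of 2138 members tested (0.0468%), against 0.582% of all autosomal probes (0.467% with a mean above 0.5 and 0.115% below -0.5). That count was 4 without scan batch 2, and 3 without the 3 noisiest arrays or with normexp. In those settings 0.845%, 0.794% and 0.693% of all autosomal probes passed. A further 31 members had means between 0.3 and 0.5 in size, which makes 32 (1.49%), against 1.48% of the rest of chromosome 9 and 4.23% of other autosomes.

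Between the groups, no difference in the share of deviating flank probes passed the test. The share averaged 5.85% ± 6.77 with lymphoma (SD, n = 8) and 10.8% ± 13.1 without (SD, n = 14), a difference of -4.94 points (p = 0.344, exact two-sided permutation test, 0.515 adjusted over the 3 group comparisons). Within the scan batches that held both groups the difference was 8.69, -0.26, -5.06 and -1.70 points, so its sign varied. The difference between flank and rest of chromosome 9 averaged -0.05 points with lymphoma and -0.28 points without, a difference of 0.24 points (exact permutation p = 0.832, adjusted 0.832). Within batches that value was -0.82, 0.06, 1.3 and -0.26 points. Set against all other autosomes, the flank share averaged -6.39 points with lymphoma and -0.39 points without, a difference of -6.00 (exact permutation p = 0.000197), while the other autosomes themselves had 12.2% ± 6.15 with lymphoma and 11.2% ± 12.9 without. The difference in the flank share turned to 1.18 points without the 3 noisiest arrays, to 0.42 with scan batch as a block and to 0.55 with normexp background correction.

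The median log2 ratio of the flank was the comparison nearest the threshold. It averaged 0.04 ± 0.02 with lymphoma (SD, n = 8) and -0.01 ± 0.07 without (SD, n = 14), and ran from 0.01 to 0.07 against -0.25 to 0.05. The difference of 0.05 had an exact permutation p of 0.0323, and 0.0970 when adjusted over the 3 comparisons. It was 0.04, 0.02, 0.11 and 0.02 within the scan batches that held both groups, and its exact permutation p was 0.247 with scan batch as a block. Centred on the mode of each array it was 0.09 (p = 0.00751), and with the median of the rest of chromosome 9 subtracted, a measure added after seeing the data, 0.08 (p = 0.00687, and 0.115 with scan batch as a block), both by unadjusted exact permutation. Without no-lymphoma mouse 14 it was 0.03 (exact permutation p = 0.00487), and in the inner flank from 48 to 58 Mb it was 0.03 (p = 0.348). The rest of chromosome 9 had medians of -0.03 ± 0.01 with lymphoma and 0.00 ± 0.03 without.

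Probe by probe, 8 members were higher and none was lower with lymphoma in the limma fit, which is 0.374% of the 2138 tested. Over all autosomal probes 2.32% were higher and 0.817% lower, 3.14% in all. At an unadjusted p under 0.05, 206 members differed (9.64%), against 16.7% of all autosomal probes. With scan batch as a term, or with normexp background correction, no member passed, while without the 3 noisiest arrays 25 were higher and 3 lower, a setting in which 4.83% of all autosomal probes differed. The 8 were named after their values were seen and included probes in C1qtnf5, Cxcr5 and Cadm1. Cxcr5 is a chemokine receptor of B cells and follicular helper T cells and Cadm1 a cell adhesion molecule. The Cxcr5 probe ran from 0.09 to 0.43 with lymphoma and from -0.32 to 0.13 without, a difference of 0.30 (SE 0.06, adjusted p 0.00662 in limma). The largest difference was 0.58, at an unnamed probe at chr9:57998723-57998782. The ranges of the 2 groups overlapped at all 8.

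In 1 Mb windows of mean log2 ratio, 4 of the 20 flank windows were higher with lymphoma and none was lower (limma, adjusted p under 0.05), against 15% higher and 25.8% lower of all windows. They began at 44, 45, 57 and 62 Mb. The window from 44 to 45 Mb averaged 0.16 ± 0.08 with lymphoma (SD, n = 8) and 0.01 ± 0.12 without (SD, n = 14). With scan batch as a term no flank window passed, and without the arrays of scan batch 2 none did, and 1 did without the 3 noisiest arrays. In those settings 17.1%, 28.9% and 34.5% of all autosomal windows differed.

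One array carried a copy number change across most of the flank. In no-lymphoma mouse 14, least-squares segmentation called adjoining losses from 36498727 to 59830904, which covered 23.3 Mb and 1854 of the 2141 members. The mean log2 ratio of its probes there was -0.33, or 0.79 of the wildtype signal, while the other 21 arrays had means from -0.08 to 0.04 over the same probes. The remaining 287 members, beyond the end of the losses, averaged -0.07 in this mouse. Just before them lay a gain from 35058238 to 36470167 with a mean of 0.90, so the left border fell outside the flank and the right border inside it. Of the members inside the losses 20.1% lay below -0.5 in this mouse, against 10.5% of those past their end. The Atm probe was at 0.67 in this array and the other 11 Atm probes averaged -0.19.

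The neighbouring parts of chromosome 9 were altered in other arrays without reaching the flank. No-lymphoma mouse 7 had gains from the start of the chromosome up to 34873157, with segment means of 0.38 to 0.85, and a flank median of 0.01. Lymphoma mouse 3 had a gain from 30603854 to 36158283 (mean 0.53) and a loss from 68876537 to 72683303 (mean -0.65). In all, 8 arrays had a called segment over the flank and 14 had none. Of the 11 called segments, 9 held 13 probes or fewer.

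The commonest of these short segments was a run of 13 probes at chr9:46840354-47111268, 271 kb long and 6.35 Mb before the Atm probe. It was chosen after its values were seen, as the segment called with the same borders in the largest number of arrays. Of its probes, 2 carry a name, AK038437, and the nearest named probes outside it belong to AK135600 and to Cadm1. Its mean log2 ratio was -0.97 in lymphoma mouse 6, and -0.93, -0.91, -1.03 and -1.21 in no-lymphoma mice 7, 8, 13 and 14. It was -0.39 and -0.43 in lymphoma mice 1 and 2, -0.57 in no-lymphoma mouse 9, and -0.21 and -0.30 in 2 of the arrays of scan batch 2, mouse 3 and mouse 4 as labelled. The array labelled no-lymphoma mouse 1 had a mean of 0.38 over the 13 probes. Its called gain covered 12 of them, up to 47095323, with a mean of 0.46. The last probe of the run, at 47111209, was at -0.57 in it. The calls in lymphoma mice 1 and 2 also ended at 47095323, before that probe. With the signs of scan batch 2 turned, the gain would be a loss of the same size, and the means of the other arrays of that batch would lie above 0. The remaining 5 lymphoma and 6 no-lymphoma arrays lay between -0.10 and 0.08.

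Outside scan batch 2, the arrays thus lay near -1, at intermediate values or near 0, and each of these levels held arrays of both groups. The 13 probes on each side of it averaged -0.03 and -0.06 in lymphoma mouse 6 and -0.02 and -0.06 in no-lymphoma mouse 8, so the shift stopped at the borders of the run in those arrays. The low arrays had their change in the Atm-deficient channel, where the run's mean signal was -0.28 in lymphoma mouse 6 and -0.34 in no-lymphoma mouse 13, against 0.68 and 0.70 in the wildtype channel, both relative to the channel median. In the array labelled no-lymphoma mouse 1 the Atm-deficient channel was at 0.52 and the wildtype channel at 0.15. The low set did not follow the Atm probe, which was 1.04 in lymphoma mouse 6 and 0.67 to 1.07 in no-lymphoma mice 7, 8, 13 and 14, like most arrays near 0 for the run. All spots of the run were well above background.

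Among the 20 members with the largest means, 10 were above 0 and 10 below, and 6 belonged to this run. These members were picked by their mean, so the values describe them. After the Atm probe the sizes of the means ran from 0.46 down to 0.31, and 10 of the 20 had values beyond 0.5 in both directions. The inner probe of the run at 46973947 had the lowest mean, -0.46 ± 0.45 (SD, n = 22). The GC content of the 20 had a median of 36.7%, equal to the 36.7% of all members.

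The brightness of these probes sets what their means can carry. Of the 20, 15 were well above background in both channels on every array, the Atm probe and the 6 of the run among them. The unnamed probe at 54116526 and one of Ireb2, a regulator of iron metabolism, had means of -0.46 and -0.41 but were not well above background in both channels on 14 and 21 of the 22 arrays, so their values rest on signals near background. The Neil1 probe, in a DNA glycosylase gene of base excision repair, was not well above background on 3 arrays, and ran from -0.83 to 1.89 with lymphoma and from -2.79 to 0.57 without. Its lowest values were -2.79 in no-lymphoma mouse 9 and -2.27 in the array labelled mouse 3, both noisy arrays. On the positive side, a probe of Tmprss4, a membrane serine protease gene, had a mean of 0.43 ± 0.65 and one of Usp2, a deubiquitinase gene, at 44011046 a mean of 0.40 ± 0.36 (SD, n = 22), not well above background on 4 arrays and 1 array. A Cd3g probe, in a chain of the T cell receptor complex, had a mean of 0.32 ± 0.23, and a Coro2b probe, in an actin-binding protein gene, one of 0.35 ± 0.35. Over all probes of the gene, Cd3g averaged 0.13 (2 probes) and Tmprss4 0.10 (4 probes).

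The 10 autosomal probes whose values over the 22 arrays were most like the Atm probe had Pearson's r from 0.815 to 0.855, and lay on chromosomes 2, 4, 6, 8, 9, 11 and 19. Of these, 1 was a member, at chr9:57521497-57521556 (r 0.840). The closest was an unnamed probe at chr4:122415343-122415402 (r 0.855), and a probe of Nrap, a muscle anchoring protein gene, had r 0.837. Over the 19 arrays with a positive Atm probe these 3 had r 0.540, 0.392 and 0.463. All 10 had a lower r over those arrays, from 0.136 to 0.742, the highest at a probe of Spata32 (0.821 over 22 arrays). The next members were probes of BC033915 (r 0.738), Ift46 (r 0.725), an unnamed one (r 0.723) and AK038682 (r 0.722). An r over 0.7 was found for 14 members (0.655%), against 0.225% of the rest of chromosome 9 and 0.202% of other autosomes. Over all members the median r was 0.10, against -0.03 for the rest of chromosome 9 and 0.02 for other autosomes. All points share the array, its noise and its dye normalisation, and r is given as a description.

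By gene, the flank was close to the level of the wildtype DNA. The files give 334 names to 1496 members, and 181 genes had at least 3 probes. Their means over 22 arrays ran from -0.15 to 0.18, and none lay beyond 0.25. The 6 largest in size were Tspan3 (0.18), Hyou1 (0.16), AY074887 (-0.15), Csk (0.15), Snupn (0.14) and Il10ra (0.13). Hyou1 encodes a chaperone of the endoplasmic reticulum, Snupn an import factor for spliceosomal particles, and Il10ra a chain of the interleukin 10 receptor. AY074887 had the widest spread (SD 0.69), and was at -2.22 in no-lymphoma mouse 14.

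Between the groups, the gene means were mostly higher with lymphoma, by a median of 0.08, and 152 of 181 genes lay on that side. Without no-lymphoma mouse 14, in which 120 of the 181 genes lay below -0.2, the median was 0.05 and 138 genes lay on that side. Over all fitted autosomal probes the median difference was 0.00. The share of genes on that side elsewhere is not given here, and neighbouring genes of the same 22 arrays are not independent. The difference in the flank median had an exact permutation p of 0.247 with scan batch as a block. The largest were Ift46 (0.33), Tmprss4 (0.27), Csk (0.26), Nkapd1 (0.26), Jaml (0.25) and C2cd2l (0.24). Ift46 is a part of the transport machinery of cilia, and Jaml a junctional adhesion molecule of leukocytes. Csk, the kinase that holds Src family kinases inactive in T cells, averaged 0.32 ± 0.12 with lymphoma (SD, n = 8) and 0.06 ± 0.20 without (SD, n = 14). No probe of these 6 genes passed the limma fit, and their group ranges overlapped.

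The genes that neighbour Atm were within the range of the region. Of 15 genes listed, 11 had probes, 67 in all, and none of those probes passed either limma test, of the groups or of a mean beyond 0.5. Their gene means over 22 arrays ran from -0.13 to 0.01. The largest in size were Sln, which regulates the calcium pump of muscle (-0.13 from 1 probe), Elmod1 (-0.07), and Cul5, a scaffold of ubiquitin ligases (-0.07). Exph5 and Poglut3, on the low-coordinate side of Atm, had means of -0.03 and -0.01, and Acat1 and Rab39, on the other side, had 0.00 and 0.00.

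Of 13 genes of T cells and lymphocytes, all had probes, and 1 of 45 probes, in Cxcr5, was higher with lymphoma, a share near the 2.32% of all autosomal probes. Their median gene difference was 0.15, against 0.08 over the 181 genes with at least 3 probes, of which 152 were higher. In the list 13 of 13 were higher, and 12 of 13 without no-lymphoma mouse 14. Most of the listed genes lie close together, from Thy1 at 43981040 to Il10ra, which ends at 45226825, and Csk lies at 57660331. Over all their probes, the windows beginning at 44, 45 and 57 Mb differed by 0.14, 0.12 and 0.12. Whether the listed genes differed from their neighbours was not tested. The means of Mpzl3 and Il10ra were 0.18 and 0.13. Of 8 genes of the DNA damage response and chromatin, 5 had probes, and 1 of 50 probes was away from 0 by more than 0.5, the Atm probe itself. Cul5 is in this list and in that of the neighbours. H2ax, the histone variant that Atm phosphorylates at breaks, had a mean of 0.31 ± 0.17 (SD, n = 22) from 1 probe, and 0.43 ± 0.10 with lymphoma (SD, n = 8) against 0.24 ± 0.17 without (SD, n = 14). That probe did not pass the limma fit between the groups, and its ranges overlapped (0.34 to 0.65 against -0.03 to 0.59). Pml, which builds nuclear bodies, was at 0.07, and Zbtb16, a transcription factor of innate-like T cells, at 0.02.

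None of the 65 probes of the 7 nerve receptor and adhesion genes, the 6 probes of the 4 apolipoproteins or the 11 probes of the 4 cytochromes passed either test. Median gene differences between the groups were 0.01, 0.07 and 0.05 in those lists. Ncam1, a neural cell adhesion molecule with 34 probes, had a mean of -0.08 ± 0.08 (SD, n = 22), and Apoa4 one of 0.19 ± 0.27 from 1 probe. Cyp1a1, which oxidises aromatic compounds, was at 0.11 and Cyp19a1, the aromatase, at -0.09.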

How the data were processed

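Per the file headers, the deposited scanner files hold spot intensity in both channels, background-subtracted and dye-normalised by Agilent Feature Extraction 9.1.3.1 under its CGH-v4_91 protocol, which appears as version 9.1 in the submitters' processing notes. The deposited value table holds log10 ratios, red (Cy5) over green (Cy3). They equalled the scanner files' own ratio with a largest difference of 0, had column medians from -0.020 to 0.016, and were not used further.

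Log2 ratios of the processed intensity were computed without loess. Outlier spots, 3 to 111 an array, were dropped, probes spotted repeatedly took the mean of their spots, and the autosomal median of an array was set to 0. The part of spots not well above background was 0.0890% to 1.54% an array. Median spot signals were 146 to 397 in red and 146 to 226 in green. Of 235402 probes, 219650 autosomal ones, 2138 of them members, had values in every array and entered limma 3.58.1 (R 4.3.3, lmFit and eBayes, Benjamini-Hochberg, adjusted p under 0.05). Tests against 0 leave out the spread of the wildtype DNA. Windows of 1 Mb needed 20 probes. Within-array differences were tested by 100000 sign changes, and group differences over all 319770 splits of the arrays (Python 3.11.15, numpy 2.4.6). Segments had at least 5 probes and were called at 0.25 in size, with a penalty factor of 3. Both the limma step and the segmentation were tested on simulated data.

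Scan days in the headers gave 6 batches. Batch 1 was lymphoma mice 1, 3 and 4 and no-lymphoma mouse 2. Batch 3 was lymphoma mice 2 and 5, together with no-lymphoma mice 5 and 6. Batch 5 was lymphoma mouse 8 and no-lymphoma mice 7, 11 and 14. Batch 6 was lymphoma mice 6 and 7 and no-lymphoma mouse 13. Batches 2 and 4 held no lymphoma array. Within-batch values are given in the order 1, 3, 5 and 6. Whether mice shared a litter is not given.

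The array files name the genes, and a RefSeq table (GRCm38.p6, used for names alone) was searched for the 334 names: 170 matched a symbol, 41 a synonym, and 123 had no match and were kept. Named are the Atm probes with 5 neighbours on each side, the 20 members with the largest means, the 5 highest and 3 lowest windows, the probes most correlated with the Atm probe, the 6 genes of at least 3 probes with the largest differences and means, and 6 gene lists. The members, lists and rules were chosen with earlier results of these data known. Alternatives were thresholds of 0.3, 1 and 3 times the noise, other autosomes as comparison, the inner flank, normexp (offset 50, on the median signal, since some files lack the mean), centring on the mode, left-out arrays, turned signs for scan batch 2, batch terms and shifted windows.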

Additional observations from a re-analysis of the deposited data

Results flagged for a closer look

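Of 29 measures tested in the lymphoma group of 8, Dixon's test marked 7 in which 1 array lay far from the others, and chance marks about 1 in 20 groups. The group of 14 was not tested. All but 1 of the 7 come from lymphoma mouse 3, whose noise of 0.37 was the highest of its group. Its share of flank probes beyond 0.5 was 22%, against 1.73% to 5.89% in the other 7, and its share above 0.5 was 15.6%, against 0.61% to 3.55%. Its share above 0.5 exceeded that in the rest of chromosome 9 by 2.49 points, against 0.40 to 1.31 points in the others. Its mean over the 11 other Atm probes was 0.25, against 0.03 to 0.12. Single probes of Coro2b and Usp2 were at 1.31 and 0.86 in it, against 0.08 to 0.56 and 0.23 to 0.48. Lymphoma mouse 6 was marked for the run of 13 probes, with a mean of -0.97 against -0.43 to 0.03.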

How the results depend on the processing

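Results are limited by 22 arrays of unequal noise, by scan batches that held unequal numbers of each group, and by the dim probes named above. No paired analysis was made. The mouse numbers used here only follow the order of deposit, and the labels do not pair the mice of the groups. Where a value changed, the cause was not tested.

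The share beyond 0.5, flank minus rest of chromosome 9, was 0.13 points at a threshold of 1 and 0.31 points after subtracting the running median. It was -2.57 points against all other autosomes (adjusted p 0.0151). For the share below -0.5 the difference was -0.93 at a threshold of 0.3, -0.65 against other autosomes, -0.11 in the inner flank, -0.0197 with normexp and -0.44 without no-lymphoma mouse 14. For the share above 0.5 it was 0.30, -1.92 (adjusted p 0.0042) and 0.10 at a threshold of 0.3, against other autosomes and without mouse 14, and 0.12 after the running median. The group difference in the flank share was 0.55 points with normexp, 1.18 without the 3 noisiest arrays and 0.42 with scan batch as a block. The group difference in flank minus rest was -0.14 at a threshold of 0.3, -0.18 at 1, -0.0091 without scan batch 2 and -6.00 against other autosomes (exact permutation p 0.000197).

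The group difference in the flank median was 0.0305 in the inner flank (p = 0.348), 0.0423 with the signs of scan batch 2 turned (p = 0.0885) and 0.0464 with scan batch as a block (p = 0.247), all by exact permutation. Its other alternatives kept p under 0.05, from 0.0312 with normexp (p = 0.00326) to 0.0863 centred on the mode (p = 0.00751), by unadjusted exact permutation. Members that differed between the groups numbered 0 with normexp, 0 with the block, 16 when centred on the mode, 28 without the 3 noisiest arrays and 1 with signs turned, where 1.95%, 1.05%, 3.40%, 4.83% and 2.69% of all autosomal probes differed. Members with a mean beyond 0.5 numbered 3 with normexp, 4 without scan batch 2, 3 without the noisiest arrays and 2 with signs turned. Of all autosomal probes, 0.693%, 0.845%, 0.794% and 0.628% passed in those settings. Windows with a share away from the autosomal share numbered 6 at a threshold of 1, and 9 after the running median, of which 6 were higher. Of all autosomal windows, 51.1% and 37.4% were away from it in those settings. Windows that differed between the groups numbered 0 with normexp, without scan batch 2 or with the block, where 5.86%, 28.9% and 17.1% of all autosomal windows differed. Flank windows numbered 1 without the noisiest arrays, 1 with signs turned and 2 when shifted, against 34.5%, 35.1% and 39.1% of all windows. The other 62 alternatives kept direction and side of the threshold, or a count within 1.5 times.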
